A study of Mus musculus with 8 samples.

Results

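NKG2D ligands, their receptor and its adaptor were followed in pancreatic lymph nodes of mice lacking Deaf1. The members are the probes whose gene name on the array is H60, H60a, Raet1a, Raet1b, Raet1c, Raet1d, Raet1e, Ulbp1, Klrk1 or Hcst. Of these 10 names, 6 were on the array (H60, Raet1a, Raet1e, Ulbp1, Klrk1 and Hcst), with 9 probes among 41174, and 5 of the 6 genes passed the filter on dim probes that left 18417 genes in all. Raet1e was the gene that did not pass. The members were chosen with their knockout over wild-type ratios known, so those ratios are given as a description, with no p-value. The calls that members receive in the fit over all genes are set beside the share of all genes called, and support nothing.

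Each of 8 arrays of 2 colours set RNA of 1 Deaf1 knockout mouse of the BALB/c strain, labelled with Cy5, against a pool of BALB/c wild-type mice of the same age, labelled with Cy3. The labels name the controls as littermates. There were 2 knockout mice at 4 weeks, against a pool of 2 wild-type mice, and 3 knockout mice each at 12 and 30 weeks, against pools of 3. Deaf1 is a DNA-binding transcription factor, and the labels do not say which portion of the gene is deleted. The tissue was the whole node that drains the pancreas, so fewer cells of a type and less RNA per cell cannot be told apart. The wild-type side of each age is taken to be 1 pool, the dyes were never swapped, and no wild-type mouse was set against the pool, so the spread of wild-type mice and any dye bias are in no value here. The number of arrays limits the precision.

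NKG2D, encoded by Klrk1, is an activating receptor on natural killer cells, on gamma-delta T cells and on activated CD8 T cells of the mouse. It has no signalling tail of its own and works through the adaptor DAP10, encoded by Hcst, and in the mouse also through DAP12, encoded by Tyrobp. Its ligands are distant relatives of MHC class I molecules, the H60, RAE-1 (Raet1) and MULT1 (Ulbp1) families, which healthy cells carry at low levels and which DNA damage, infection and proliferation can induce. H60 was first known as a minor histocompatibility antigen that BALB/c mice express and C57BL/6 mice lack. NKG2D and RAE-1 have been studied in the autoimmune diabetes of NOD mice, in which pancreatic islets are attacked.

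The probes are shown because the comparison turns on which transcript each one can bind. Both H60 probes cite the same H60 transcript and do not overlap in sequence.
H60, brighter probe: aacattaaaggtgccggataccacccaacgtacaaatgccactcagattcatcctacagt
H60, dimmer probe: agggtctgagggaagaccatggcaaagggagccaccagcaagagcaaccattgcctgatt
The dimmer probe lies at chr10:21996606-21996665 of the mm8 build, on the plus strand, and the files give no position for the brighter one. The files do not say whether either lies in coding sequence or in a UTR. Whether they also bind the related H60b and H60c transcripts was not tested, and neither of those names was on the array.

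The Raet1 family consists of close copies, and its probes could share targets. The pair below overlaps over 38 bases, of which 32 match and 6 differ, and the capitals mark the differing bases.
Raet1a, dimmer probe: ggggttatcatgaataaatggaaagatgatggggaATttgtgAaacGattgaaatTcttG
Raet1e: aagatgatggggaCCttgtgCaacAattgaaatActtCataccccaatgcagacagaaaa
Both follow the plus strand, at chr10:22060929-22060988 for Raet1a and chr10:21870709-21870768 for Raet1e (mm8). The brighter Raet1a probe, at chr10:22061011-22061628 (mm8), also lists the transcript by which the Raet1e probe is named, and the dimmer one also lists the transcript of Raet1d. The signals named Raet1a are therefore uncertain as to which copy they measure.

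Ulbp1, Klrk1 and Hcst had 1, 2 and 1 probes, and the sequences of the probe of Ulbp1, the brighter probe of Klrk1 and the probe of Hcst are given because each stands alone or leads for its gene.
Ulbp1: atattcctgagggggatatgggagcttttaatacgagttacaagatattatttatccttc
Klrk1, brighter probe: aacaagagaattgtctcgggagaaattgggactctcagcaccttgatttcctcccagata
Hcst: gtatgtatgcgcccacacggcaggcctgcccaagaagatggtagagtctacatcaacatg
The Klrk1 probe lies at chr6:129578157-129578446 and the Hcst probe at chr7:30126581-30126881, both on the minus strand of mm8, and each interval is wider than the 60 bases of the probe. RefSeq places Ulbp1 on chromosome 10 (GRCm38.p6), the chromosome of the dimmer H60 probe and of the Raet1 probes. The GC content of the 9 probes ran from 35% to 55%, against a median of 40% over all 41174 probes.

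On the brighter probe, H60 was lower in both knockout mice at 4 weeks and higher in all 6 knockout mice at 12 and 30 weeks. It lay well above background in both channels of all 8 arrays. At 4 weeks its normalised log2 level was 9.40 and 9.56 in the knockout mice, against 10.10 and 9.98 in the wild-type pool. The 12-week levels were 11.53, 10.32 and 10.91 in knockout mice, against 9.75, 9.73 and 9.69 in the pool. At 30 weeks it was 10.38, 10.62 and 10.75 in knockout mice, against 9.60, 9.57 and 9.63 in the pool. The knockout and wild-type channels did not overlap at any of the 3 ages, and replicate 1 of 12 weeks was the highest. The share of all genes without such overlap was not counted. These are levels after loess, and with median centring only the mean ratio at 4 weeks was 0.26. The SD of the knockout channel was 0.12, 0.61 and 0.19 at 4, 12 and 30 weeks, against 0.08, 0.03 and 0.03 in the pool. Repeat readings of what is taken to be 1 pool hold no spread between wild-type mice, so these SDs do not compare mice with mice.

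**Figure D1:**
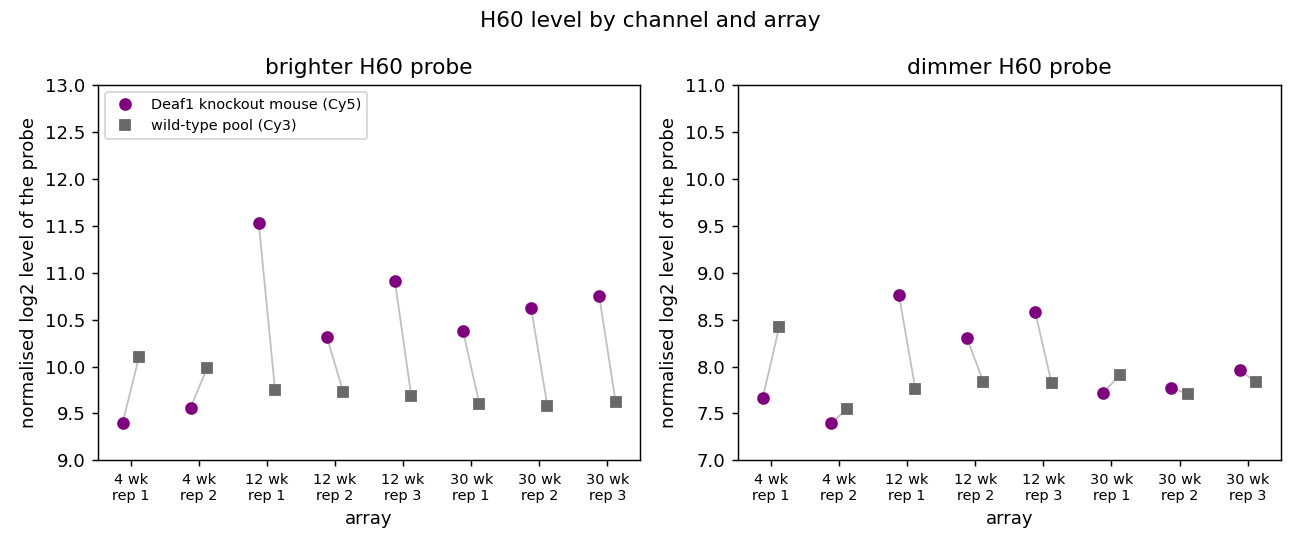
Normalised log2 level (vertical axes) of the brighter H60 probe (left) and the dimmer one (right) on each array (horizontal axes), with the knockout mouse as a circle, its wild-type pool as a square and a grey line joining the channels of an array. On the brighter probe the knockout mice sit below the pool at 4 weeks and above it at 12 and 30 weeks, while on the dimmer probe the channels lie close together at 30 weeks.

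The log2 ratio of knockout over wild type on the brighter H60 probe was −0.70 and −0.42 at 4 weeks, 1.78, 0.59 and 1.22 at 12 weeks, and 0.77, 1.05 and 1.12 at 30 weeks. Its mean was −0.56 (SD 0.20, n = 2) at 4 weeks, a level 1.47-fold lower in knockout nodes, though it was 0.26 with the arrays merely median-centred. At 12 weeks the mean was 1.20 (SD 0.60, n = 3), or 2.29-fold higher in knockout nodes, and at 30 weeks it was 0.98 (SD 0.18, n = 3), or 1.97-fold higher. The ratios of the 2 mice at 4 weeks overlapped with none of the 6 at later ages, whereas those of 12 and 30 weeks overlapped. Among 18417 genes ordered by their fitted ratio, H60 was the 12th from the top at 12 weeks, the 65th from the top at 30 weeks and the 381st from the bottom at 4 weeks.

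The sex-linked genes set 1 of the 12-week arrays apart from its pool. Xist is the RNA of X chromosome inactivation, made in female cells. Its log2 level was 12.92 in the knockout mouse of replicate 2, against 7.60 in its pool. In replicates 1 and 3 it had 7.31 and 7.88 in the knockout mice, against 7.71 and 7.55 in the pool. The Y-linked Ddx3y had a ratio of −3.89 in replicate 2. That array had the lowest H60 ratio of its age, and without it the mean of the brighter probe at 12 weeks was 1.50. At 4 and 30 weeks Xist lay between 13.08 and 14.15 in knockout mice and between 12.60 and 13.40 in the pools, so the 12-week pool differs from the pools of the other ages in this gene as well. The share of this difference in the change of H60 with age was not tested.

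All 3 arrays of 12 weeks and replicate 1 of 30 weeks shared slide 2, replicates 2 and 3 of 30 weeks shared slide 3, and the 4-week arrays had slide 1 to themselves. The H60 ratio at 30 weeks was 0.77 on slide 2 and averaged 1.08 on slide 3. At 4 weeks, age and slide cannot be told apart.

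The dimmer H60 probe moved with the brighter one at 4 and 12 weeks and departed from it at 30 weeks. Its ratio was −0.75 and −0.15 at 4 weeks, 1.00, 0.47 and 0.76 at 12 weeks, and −0.19, 0.07 and 0.12 at 30 weeks. Its means were −0.45 (SD 0.42), 0.74 (SD 0.27) and 0.00 (SD 0.17) at the 3 ages. At 30 weeks its level was 7.72, 7.77 and 7.96 in knockout mice, against 7.91, 7.71 and 7.84 in the pool, so the channels overlapped. They also overlapped at 4 weeks, with 7.67 and 7.40 in knockout mice, against 8.42 and 7.55 in the pool. There the SD of the pool readings was 0.62, larger than the size of the mean ratio. This probe, too, lay well above background in both channels of all 8 arrays.

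Set against each other on the same array, the ratio of the brighter H60 probe minus that of the dimmer one was 0.96, 0.98 and 1.00 at 30 weeks. The same difference at 12 weeks was 0.78, 0.12 and 0.46, and at 4 weeks it was 0.05 and −0.27. The difference was thus nearly equal in the 3 mice of 30 weeks (SD 0.02) and varied among those of 12 weeks (SD 0.33). Among the 4239 genes with exactly 2 probes past the filter, 122, or 2.88%, had probes whose mean ratios at 30 weeks lay at least as far apart, and the median distance was 0.26. A statement that H60 was higher in knockout nodes at 30 weeks therefore rests on the brighter probe alone, while at 12 weeks both probes show it in all 3 mice.

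The RAE-1 ligands were dim and close to the wild-type level. The brighter Raet1a probe was well above background in the knockout channel of 8 arrays and the wild-type channel of 7. Its log2 ratio was 0.07 and 0.04 at 4 weeks, −0.03, 0.11 and 0.04 at 12 weeks, and −0.15, −0.04 and −0.33 at 30 weeks. The 30-week mean of −0.17 (SD 0.15, n = 3) was the largest in size of the 3 ages and corresponded to a 1.13-fold lower level in knockout nodes.

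The dimmer Raet1a probe was well above background in the knockout channel of 6 arrays and the wild-type channel of 4. At 4 weeks it was not well above background in either wild-type channel and was so in 1 of 2 knockout channels, with ratios of 0.26 and 0.16 and no fold given for that age. Its ratio was −0.04, 0.02 and −0.22 at 12 weeks and −0.23, −0.12 and −0.09 at 30 weeks. Both Raet1a probes thus lay below 0 in all 3 mice of 30 weeks. Raet1e, the other RAE-1 ligand with a probe, was not well above background in either channel of any array, and no fold is given for it.

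Ulbp1, which encodes the ligand MULT1, had a log2 ratio of 0.55, −0.09 and 0.23 at 12 weeks (mean 0.23, SD 0.32) and of 0.23, 0.10 and 0.15 at 30 weeks (mean 0.16, SD 0.06). Its level at 30 weeks averaged 6.81 (SD 0.09) in knockout mice and 6.65 (SD 0.03) in the pool. At 4 weeks it was well above background in 1 of 2 knockout channels and in neither wild-type channel, with ratios of 0.11 and −0.09 on both sides of 0, and no fold is given. Ulbp1 was above its pool in every mouse of 30 weeks, by less than H60 on its brighter probe in each of them. At 12 weeks the SD exceeded the mean.

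Klrk1, the receptor, stayed near the wild-type level at 12 and 30 weeks. On the brighter probe its ratio was 0.17, −0.20 and 0.12 at 12 weeks (mean 0.03, SD 0.20) and 0.27, −0.13 and −0.07 at 30 weeks (mean 0.02, SD 0.22), with mice on both sides of 0. At 4 weeks it was well above background in 1 of 2 knockout channels and neither wild-type channel, with ratios of 0.44 and 0.06, and no fold is given. At 4 weeks the dimmer Klrk1 probe, too, was above background in 1 of 2 knockout channels and neither wild-type channel, with ratios of −0.04 and 0.22. It had ratios of −0.20, −0.38 and −0.08 at 12 weeks and of −0.23, −0.13 and −0.04 at 30 weeks. It lay below 0 in all 6 of these mice, with means of −0.22 (SD 0.15) and −0.13 (SD 0.10), so the Klrk1 probes differ in sign at both ages.

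Hcst, the DAP10 adaptor, was well above background in both channels of all 8 arrays. At 4 weeks its level was 11.30 and 11.14 in knockout mice, against 12.31 and 11.67 in the pool. Its ratio there was −1.01 and −0.54, a mean of −0.77 (SD 0.33, n = 2) or a 1.71-fold lower level in knockout nodes, though it was 0.12 with the arrays merely median-centred. At 12 weeks the ratio was −0.31, 0.22 and 0.06 (mean −0.01, SD 0.27), on both sides of 0. At 30 weeks it was −0.22, −0.29 and −0.45, a mean of −0.32 (SD 0.12), with all 3 mice below the pool, but 0.02 with median centring only. Hcst was the 132nd gene from the bottom of 18417 at 4 weeks.

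**Figure D2:**
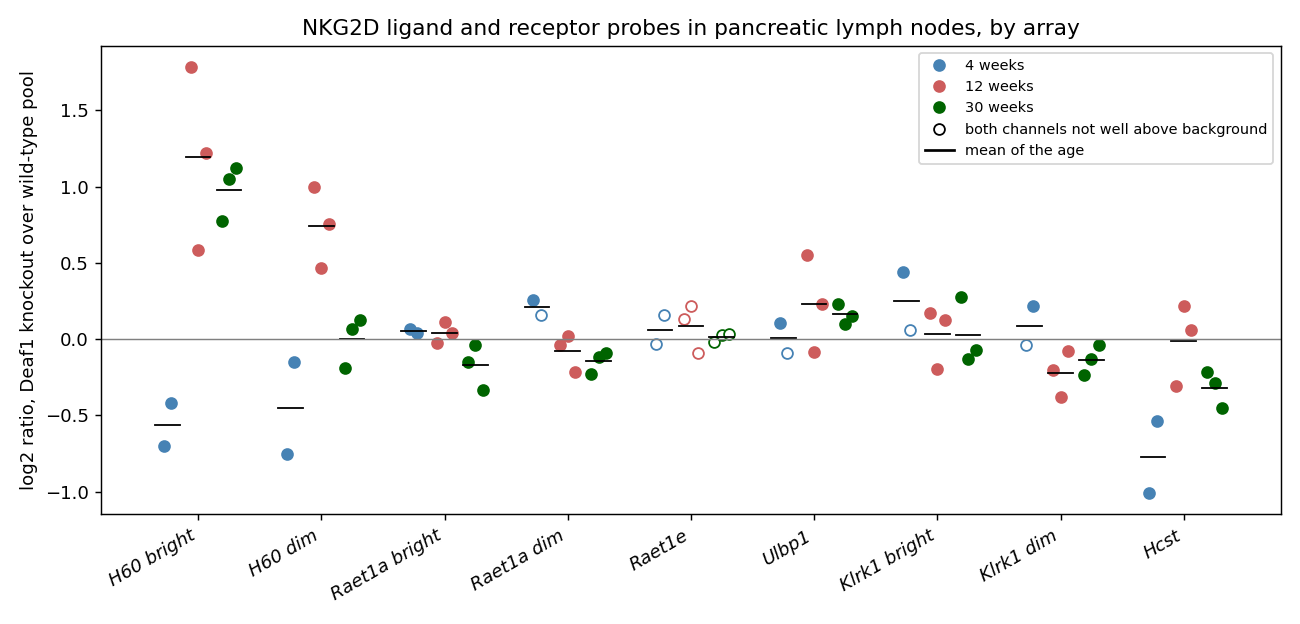
Log2 ratio of knockout over wild-type pool (vertical axis) for the 9 probes (horizontal axis), with 1 point per array coloured by age, black bars for the mean of an age, and open points where both channels were not well above background. The brighter H60 probe reaches 1.78 at 12 weeks and lies between 0.77 and 1.12 at 30 weeks, while Raet1a, Raet1e, Ulbp1 and Klrk1 stay within 0.6 of 0.

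All 18417 genes were tested with limma in 1 fit that gives each age its mean ratio, and a gene is called where its Benjamini-Hochberg adjusted p over all of them is under 0.05. At 4 weeks 22.7% of all genes were called, 15.3% as higher and 7.37% as lower in knockout nodes, and of the 5 members tested Hcst was called lower. At 12 weeks 2.61% of genes were called, 1.24% as higher and 1.37% as lower, and H60 was the member called, as higher. At 30 weeks 39% of genes were called, 20.7% as higher and 18.4% as lower, and H60 was again the member called. The difference between ages of 12 minus 4 weeks was called for 6.98% of genes, 1.37% as higher and 5.61% as lower, with H60 and Hcst among the higher. That of 30 minus 4 weeks was called for 18.8%, 7.09% as higher and 11.7% as lower, with H60 among the higher. That of 30 minus 12 weeks was called for 0.776%, 0.32% as higher and 0.456% as lower, and for none of the 5 members. The call of H60 at 12 weeks was lost without replicate 1 or 3 of 12 weeks or replicate 1 or 3 of 30 weeks, and with the replicate number as a block. The call of H60 in 12 minus 4 weeks was lost with median centring only, with the replicate number as a block, without either 4-week array and without replicate 3 of 12 weeks. That in 30 minus 4 weeks was lost with median centring only and without replicate 1 of 4 weeks. The call of Hcst at 4 weeks was lost in the same 2 settings, and that in 12 minus 4 weeks in 13 of 16 alternative settings, among them the scanner's processed signals and the replicate block. At 4 weeks H60 was called lower without replicate 1 or 2 of 12 weeks and with slide as a random block. The members were chosen on these ratios, so their calls are a description. The median ratio of the 5 members was 0.01, 0.04 and 0.02 at 4, 12 and 30 weeks, beside 0.02, 0.02 and 0.03 for all genes.

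The genes below were listed as the rest of the pathway, and their tests use the same fit. The molecules that carry the NKG2D signal include the Vav exchange factors, the PI3 kinase subunits, the phospholipases C gamma and the kinases behind DAP12. At 30 weeks 13 of the 26 genes of this list were called lower in knockout nodes and 2 higher, with a list median of −0.22 after loess. With arrays only centred on their median, 1 was called lower and 4 higher, and the list median was 0.15, equal to the median of all genes under that scaling. At 4 weeks 3 of 26 were called higher and 3 lower, and at 12 weeks limma called none, with 7 at an unadjusted p under 0.05. Median centring only gave 21 higher and 0 lower at 4 weeks and 23 higher and 0 lower at 12 weeks. In the loess fit, 20.7% of all genes were called higher and 18.4% lower at 30 weeks. These shares were 15.3% and 7.37% at 4 weeks, and 1.24% and 1.37% at 12 weeks.

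Vav1, which links NKG2D and DAP10 to the cytoskeleton and to cytotoxicity, had ratios of −0.62, −0.82 and −0.61 in the 3 mice of 30 weeks. Its fitted ratio was −0.69 ± 0.10 (SE, limma adjusted p = 0.00153, n = 3). Mapk3, the kinase ERK1, fell by 0.64 ± 0.10 on the log2 scale (limma adjusted p = 0.00209) and Pik3r1, the regulatory subunit of PI3 kinase, by 0.60 ± 0.10 (limma adjusted p = 0.00269). Syk, a kinase that acts behind DAP12, fell by 0.44 ± 0.07 (limma adjusted p = 0.0019). With median centring only, these 4 genes kept a negative ratio, between −0.35 and −0.07. Of 3 further probes of Pik3r1 past the filter, 2 had the sign of the leading one and 1 the opposite sign.

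At 4 weeks the catalytic subunits of PI3 kinase split. Pik3ca had ratios of 0.61 and 0.64 and rose by 0.62 ± 0.12 (limma adjusted p = 0.00738, n = 2). Pik3cd, the subunit typical of leukocytes, had −0.58 and −0.41 and a fitted ratio of −0.49 ± 0.08 (limma adjusted p = 0.00467), but 0.42 with median centring only, and its other probe past the filter stood at −0.03. Plcg2 rose by 0.37 ± 0.08 (limma adjusted p = 0.0131) and Plcg1 fell by 0.34 ± 0.08 (limma adjusted p = 0.0215), the second turning to 0.56 with median centring only and having 2 other probes past the filter at −0.08 and −0.01. In this list the 12-week genes farthest from 0 were Mapk3, at −0.38, and Pak1, at −0.36, neither of them called.

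Cells that carry NKG2D were followed by 20 tested genes of natural killer and cytotoxic T cells. At 4 weeks 7 were called lower in knockout nodes and none higher, at 12 weeks 3 lower and none higher, and at 30 weeks 3 lower and 2 higher. Of all genes, 7.37% were called lower and 15.3% higher at 4 weeks. These shares were 1.37% and 1.24% at 12 weeks, and 18.4% and 20.7% at 30 weeks. Without replicate 1 of 4 weeks none of the 20 was called at that age. With median centring only, 1 of them was called higher and none lower at 4 weeks. That setting called 5 higher and 4 lower at 12 weeks, and 3 higher and 1 lower at 30 weeks. Ncr1, the natural killer cell receptor NKp46, was below the pool in every mouse. Its ratio was −0.70 and −0.38 at 4 weeks, −1.15, −0.76 and −0.75 at 12 weeks, and −0.60, −0.62 and −0.52 at 30 weeks.

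The fitted ratio of Ncr1 was −0.54 ± 0.12 at 4 weeks (limma adjusted p = 0.0139), −0.89 ± 0.10 at 12 weeks (limma adjusted p = 0.0104) and −0.58 ± 0.10 at 30 weeks (limma adjusted p = 0.00274), and it stayed below 0 at each age with median centring only, at −0.13, −0.72 and −0.52. Ncr1 was thus 1.85-fold lower in knockout nodes at 12 weeks. Klrk1 itself was at 0.03 there on the brighter probe and at −0.22 on the dimmer one.

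Gzma, a granzyme of killer lymphocytes, had ratios of −1.01 and −0.56 at 4 weeks and a fitted ratio of −0.78 ± 0.13 (limma adjusted p = 0.00453), but stood at −0.04 with median centring only. Klrb1c, the NK1.1 antigen gene, fell by 0.51 ± 0.09 at 12 weeks (limma adjusted p = 0.0325). Cd8b1, a chain of the CD8 coreceptor, fell by 0.57 ± 0.11 at 4 weeks (limma adjusted p = 0.0075) and by 0.54 ± 0.09 at 12 weeks (limma adjusted p = 0.0292), but stood at 0.35 and 0.34 with median centring only. Klrc2, an activating NK receptor chain, rose by 0.49 ± 0.09 at 30 weeks (limma adjusted p = 0.00426). Tbx21, the transcription factor T-bet, fell by 0.53 ± 0.13 at 4 weeks (limma adjusted p = 0.022, 0.38 with median centring only) and rose by 0.36 ± 0.11 at 30 weeks (limma adjusted p = 0.0288). Nkg7, a granule protein of killer lymphocytes, fell by 0.40 ± 0.12 at 30 weeks (limma adjusted p = 0.0286), but stood at −0.04 with median centring only.

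Regulators through which DNA damage and proliferation act on the ligands were 13 tested genes. At 30 weeks 4 were called higher and 2 lower, at 4 weeks 2 higher and 1 lower, and at 12 weeks limma called none, with 4 at an unadjusted p under 0.05. Of all genes, 20.7% were called higher and 18.4% lower at 30 weeks, and 15.3% higher and 7.37% lower at 4 weeks. With median centring only, 8 of the 13 were called higher at 4 weeks and 11 at 12 weeks, with 0 lower at both, and 4 higher and 1 lower at 30 weeks. Chek2, a kinase of the DNA damage checkpoint, fell by 0.44 ± 0.08 at 30 weeks (limma adjusted p = 0.00335). E2f3, a cell-cycle transcription factor, rose by 0.66 ± 0.17 at 4 weeks (limma adjusted p = 0.0262) and by 0.50 ± 0.14 at 30 weeks (limma adjusted p = 0.0228), where neither of its other 2 probes past the filter had that sign. At 4 weeks those 2 probes stood at −0.07 and 0.03. E2f1, named among activators of RAE-1 in mouse cells, fell by 0.30 ± 0.09 at 30 weeks (limma adjusted p = 0.0363). Hdac3, a histone deacetylase that restrains RAE-1 in mouse cells, rose by 0.30 ± 0.06 at 30 weeks (limma adjusted p = 0.00681). At 4 weeks Atm, the kinase that senses double-strand breaks, rose by 0.40 ± 0.12 (limma adjusted p = 0.0465), and H2ax, its histone substrate, fell by 0.46 ± 0.14 (limma adjusted p = 0.0482), turning to 0.46 with median centring only. At 12 weeks the genes of this list farthest from 0 were Myc at 0.41 and Chek1 at 0.30, neither called.

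Cytokines and receptors that set the NKG2D level were 14 tested genes. At 30 weeks 4 were called lower and 1 higher, at 12 weeks 1 higher, and at 4 weeks 1 in each direction. Of all genes, 18.4% were called lower and 20.7% higher at 30 weeks. These shares were 1.37% and 1.24% at 12 weeks, and 7.37% and 15.3% at 4 weeks. With median centring only, 8 of the 14 were called higher and 0 lower at 4 weeks. That setting called 8 higher and 1 lower at 12 weeks, and 1 in each direction at 30 weeks. Il2rg, the receptor chain shared by IL-2, IL-15 and IL-21, had ratios of −1.02, −1.18 and −1.23 at 30 weeks and a fitted ratio of −1.14 ± 0.14 (limma adjusted p = 0.00115), or 2.21-fold lower in knockout nodes. Il21r fell by 0.58 ± 0.13 (limma adjusted p = 0.00974) and Il12a by 0.37 ± 0.10 (limma adjusted p = 0.0177) at the same age. Il2rb, which carries the IL-15 signal, fell by 0.54 ± 0.11 at 4 weeks (limma adjusted p = 0.0136), but stood at 0.38 with median centring only. Tgfbr1, a receptor for TGF-beta, a cytokine that lowers NKG2D, was above the pool on every array. Its fitted ratio was 0.62 ± 0.16 at 4 weeks (limma adjusted p = 0.0256), 0.62 ± 0.13 at 12 weeks (limma adjusted p = 0.048) and 0.67 ± 0.13 at 30 weeks (limma adjusted p = 0.00482). A further Tgfbr1 probe past the filter had means of 0.02, −0.08 and 0.02 at the 3 ages.

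Of these list calls, some depended on single arrays. Leaving out each of the 8 arrays in turn, Tgfbr1 at 12 weeks stayed called in 1 of 8 fits, E2f1 at 30 weeks in 2, Atm and H2ax at 4 weeks in 3 each, Klrb1c at 12 weeks in 4 and Cd8b1 at 12 weeks in 5. The other named list genes that were called stayed so in 6 to 8 of the 8 fits.

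**Figure D3:**
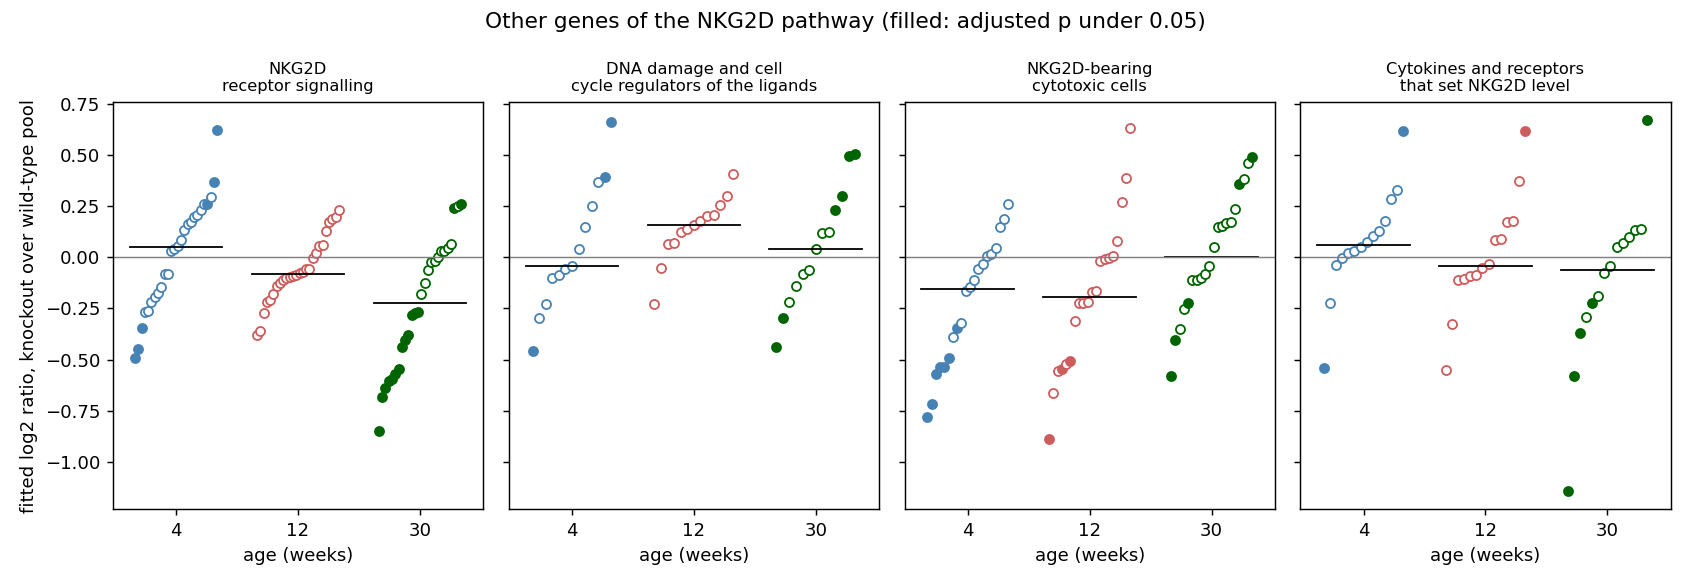
Fitted log2 ratio of knockout over wild-type pool (vertical axes) of each gene in the 4 pathway lists (panels) at 4, 12 and 30 weeks (horizontal axes), in rising order within an age, filled where the limma adjusted p is under 0.05, with a black bar at the list median. Receptor signalling genes at 30 weeks hold 13 filled points below 0 and 2 above, and no gene of that panel is filled at 12 weeks.

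Markers of other cell types in the node are given beside H60. At 4 weeks, where H60, Hcst and 7 cytotoxic cell genes were lower, the median ratio of 5 fibroblastic reticular cell genes was 1.08 and 0.57 on the 2 arrays, with 3 of the 5 called higher by limma. That of 6 B-cell genes was 0.38 and 0.50, with 3 called higher, that of 5 fat-cell genes −1.49 and −0.56, and that of 7 pancreatic acinar genes −1.87 and −0.53. For comparison, 15.3% of all genes were called higher at that age. Dcn, Pax5 and Cr2, called higher, had a further probe past the filter at 0.13, 0.10 and 0.07. Their leading probes stood at 1.33, 1.20 and 0.72. Ms4a1, also called, had 0.59 on its leading probe and 0.49 on a further one, and the called Lum and Pdgfra had no other. The fibroblastic reticular cell genes had medians between −0.07 and 0.30 on the arrays of 12 and 30 weeks. The median ratio of 7 macrophage and dendritic cell genes ran from −0.35 to 0.04 over the 8 arrays, with none of the arrays of 12 or 30 weeks above 0. The median of 6 B-cell genes was −0.14, 0.32 and −0.17 at 12 weeks and −0.05, −0.38 and −0.10 at 30 weeks, and that of 5 T-cell genes lay between −0.33 and 0.14 at these ages. The median of 7 pancreatic acinar genes was −4.32, 4.03 and −4.50 at 30 weeks, where the H60 ratio was 0.77, 1.05 and 1.12, and that of 5 fat-cell genes was −1.53, −1.62 and −0.05 at 12 weeks. The part of these markers in the H60 values was not otherwise tested. Deaf1 itself had ratios of −0.22 and −0.12 at 4 weeks, 0.34, 0.35 and 0.32 at 12 weeks, and 0.14, 0.00 and 0.15 at 30 weeks, on a probe that need not lie in the deleted part.

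The genes whose 8 ratios were most like those of the brighter H60 probe were Tbc1d10a (Pearson's r = 0.98), 4930519H02Rik (r = 0.97), Ccrl2 (r = 0.97), Maea (r = 0.97) and Slc16a3 (r = 0.97). These are descriptions over 8 arrays that share pools and slides, and are the highest of 18417 genes. Ccrl2, a chemokine-binding receptor, had mean ratios of −0.33, 0.31 and 0.20 at 4, 12 and 30 weeks, the order of H60 at a smaller size. Tbc1d10a reached no positive mean at any age. For Klrk1 the most alike were Klra1 (r = 0.95), a receptor of the Ly49 family on natural killer cells, Ank2 (r = 0.94), AK052507 (r = 0.94), AK038181 (r = 0.93) and Pik3cb (r = 0.93).

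Deaf1 is known to bind DNA at TTCG, so the promoters of members in the RefSeq table (GRCm38.p6, 300 bases each) were searched for these letters on either strand. The Ulbp1 promoter and 1 of 2 listed for Raet1e held 1 match each, and those of Klrk1 and Hcst held 0. The promoter of Raet1d, a member name that was not on the array, held 1 match. Of 32851 promoters, 44.7% held at least 1. No promoter of H60a, the gene the array names H60, was searched.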

How the data were processed

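Pancreatic lymph node RNA of 8 Deaf1 knockout mice and of wild-type pools was measured. Per the file headers, the deposited scanner tables were written by Agilent Feature Extraction 9.5.3.1 (4 weeks) and 10.2.1.3 (12 and 30 weeks), with spot, background and processed intensity, a log10 ratio of red over green and quality flags. The deposited series matrix holds log2 ratios of processed signals, found by comparison with the scanner values. How the authors made it is not given in the sources used here. Of 45018 spots, 43379 were not controls and 0 were saturated. The share of probes well above background was 46.9% to 71.5% in knockout channels and 37.3% to 62.7% in wild-type channels, the lowest in replicate 2 of 4 weeks.

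Background was corrected by normexp (offset 50) on mean signals and each array was loess-normalised, controls at weight 0, in limma 3.58.1 (R 4.3.3). Flagged spots were dropped before averaging per probe. Probes well above background in 1 channel on all arrays of an age were kept (27472), and the brightest probe stood for each gene. All 8 arrays entered 1 fit with a mean for each age (5 residual and 3.39 prior degrees of freedom) with two-sided tests and Benjamini-Hochberg adjustment, and 27 values were missing. The fit was tested on simulated data. Levels are normalised log2 values of a channel and were compared only within a probe. No fold is given where a channel failed the background flag throughout an age. Names came from accessions through RefSeq (24375 probes), from a symbol (6301) or a synonym (2426), or stayed as in the files (8072). The wild-type channels of an age correlated at 0.984 (4 weeks) and 0.998 to 0.999 (12 and 30 weeks).

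Named are all members, from each list and age up to 4 called genes with the smallest p or, with none called, the 2 farthest from 0, Deaf1, and the 5 genes most like H60 and Klrk1. The cell type marker lists are given by medians and counts, with the probes of the B-cell and reticular genes called higher at 4 weeks. The markers Xist and Ddx3y and the TTCG search were added. Members and lists were chosen with earlier results of these data known. Alternatives were the scanner's processed signals, the series matrix, median centring, no background correction, no filter, the mean of a gene's probes, the slide and the replicate number as blocks, and leaving out each array.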

Additional observations from a re-analysis of the deposited data

Results flagged for a closer look

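Several genes had knockout over wild-type ratios that differed between ages. For 5 probe comparisons, every mouse of 1 age lay above 0 and every mouse of the other below it, and no p is given for them because the members were chosen on their ratios. These 5 differences were not tested on values other than those that chose the members. How many of all probes split by sign in this way was not counted, and 4 weeks had only 2 mice. At that age the dimmer Raet1a probe was well above background in 1 of 2 knockout channels and neither wild-type channel. The comparisons are, on the log2 scale after loess, the brighter H60 probe at 12 minus 4 weeks (1.76) and at 30 minus 4 weeks (1.54), the dimmer H60 probe at 12 minus 4 weeks (1.19), and the brighter and the dimmer Raet1a probe at 30 minus 4 weeks (−0.23 and −0.35). With median centring only, the mean of the brighter H60 probe at 4 weeks was 0.26, so its split by sign does not hold there. That of the dimmer H60 probe was −0.08, and the means of both Raet1a probes kept their signs at 4 and 30 weeks.

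In the pathway lists, limma called 2 of the 73 genes tested in the difference of 12 minus 4 weeks, Plcg2 (−0.46, adjusted p = 0.0364) and Pik3cd (0.49, adjusted p = 0.032). Of all genes, limma called 6.98% in that difference and 18.8% in 30 minus 4 weeks. In 30 minus 4 weeks it called Map2k1 (−0.89, adjusted p = 0.0114), Pak1 (−0.90, adjusted p = 0.0418), Pik3r1 (−0.78, adjusted p = 0.0131), Plcg2 (−0.49, adjusted p = 0.0146), Syk (−0.47, adjusted p = 0.0173) and Pik3cd (0.50, adjusted p = 0.0159) among the signalling genes. Among the cytotoxic cell genes it called Gzma (0.96, adjusted p = 0.00761), Tbx21 (0.89, adjusted p = 0.0105), Ccl5 (0.89, adjusted p = 0.0445) and Cd8b1 (0.49, adjusted p = 0.0415). Among the other lists it called Il2rg (−1.14, adjusted p = 0.0113), Il12a (−0.70, adjusted p = 0.0178), Il2rb (0.61, adjusted p = 0.0261), Tgfb3 (−0.48, adjusted p = 0.028), Atm (−0.61, adjusted p = 0.0283), E2f2 (0.53, adjusted p = 0.022) and Hdac3 (0.34, adjusted p = 0.0464). Age is confounded with the pool and, for 4 weeks, with slide, scanner software and scanner, which cannot be told apart. The 12-week pool also differed in Xist, at 7.55 to 7.71, from the pools of 4 and 30 weeks, at 12.60 to 13.40. Comparisons of 12 weeks with another age hold this difference too, and its part in the calls was not tested.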

How the results depend on the processing

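With normexp and median centring only, the median ratio of all genes was 0.49, 0.41 and 0.15 at 4, 12 and 30 weeks (0.02, 0.02 and 0.03 after loess), and the brighter H60 probe stood at 0.26, 1.82 and 1.27. That setting called 9749 genes at 4 weeks (9361 higher, 388 lower), against 4175 (2817 higher, 1358 lower) in the loess fit, 10315 at 12 weeks (9701 higher, 614 lower), against 481 (228 higher, 253 lower), and 5150 at 30 weeks (4536 higher, 614 lower), against 7186 (3806 higher, 3380 lower). It called 51 genes (2 higher, 49 lower) in 12 minus 4 weeks, against 1285, 7 in 30 minus 12 weeks, against 143, and 3987 in 30 minus 4 weeks (221 higher, 3766 lower), against 3466 (1306 higher, 2160 lower). Of the 73 list genes tested it called 38 at 4 weeks (38 higher, 0 lower), against 18, 52 at 12 weeks (47 higher, 5 lower), against 4, and 16 at 30 weeks (12 higher, 4 lower), against 31. The cause of the difference between scalings was not tested.

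The processed signals of the scanner software called 4834 genes at 4 weeks (3854 higher, 980 lower), 132 at 12 weeks (103 higher, 29 lower), 734 in 12 minus 4 weeks and 6 in 30 minus 12 weeks, and 2 list genes at 12 weeks and 19 at 30 weeks. The series matrix called 132, 735 and 6 genes in the same last 3 contrasts, with 2 and 19 list genes. With the mean of a gene's probes H60 at 30 weeks was 0.49, and 313 genes were called at 12 weeks and 792 in 12 minus 4 weeks. With slide as a random block, whose estimated correlation was −0.26, limma called 6617 genes at 4 weeks, 8973 at 12 weeks, 4477 (1634 higher, 2843 lower) in 12 minus 4 weeks, 2335 in 30 minus 12 weeks and 6016 in 30 minus 4 weeks, with 28 list genes at 4 weeks (13 higher, 15 lower) and 45 at 12 weeks (22 higher, 23 lower).

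For arrays of different ages with the same replicate number, deviations from the age means correlated at −0.08 to 0.24, with 2 of 7 pairs over 0.1. For unlike numbers the range was −0.24 to 0.17, with 3 of 14 over 0.1. The deviations of the 2 arrays of 4 weeks mirror each other, so these values cannot decide whether the replicates pair. With the replicate number as a block limma called 2751, 312, 359 and 2136 genes at 4 weeks, at 12 weeks, in 12 minus 4 weeks and in 30 minus 4 weeks, and 10 list genes at 4 weeks. In 30 minus 12 weeks the block left 0 genes called, with 3682 at an unadjusted p under 0.05, and H60 was not called at 12 weeks or in 12 minus 4 weeks.

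Leaving out 1 array in turn, the genes called ranged from 499 to 5179 at 4 weeks, 18 to 1854 at 12 weeks, 3942 to 7952 at 30 weeks, 1 to 1769 in 12 minus 4 weeks, 0 to 2766 in 30 minus 12 weeks and 608 to 4583 in 30 minus 4 weeks. The lowest counts came without replicate 1 of 4 weeks (499, 1 and 608), replicate 1 of 12 weeks (18), replicate 3 of 30 weeks (3942) and replicate 3 of 12 weeks (0, with 2616 at an unadjusted p under 0.05). The list genes called ranged from 0 to 22 at 4 weeks (0 without replicate 1 of that age, with 12 of 73 at an unadjusted p under 0.05), 1 to 12 at 12 weeks and 16 to 34 at 30 weeks. The mean of the brighter H60 probe ranged from −0.70 to −0.42 at 4 weeks, 0.90 to 1.50 at 12 weeks and 0.91 to 1.08 at 30 weeks. Where an age kept 1 array, it was assumed to vary like the other ages. Over 24 further member results and their alternatives, 48 of 199 values moved by more than the spread and 34 changed sign. Signal over background limits Raet1a, Raet1e, Ulbp1 and Klrk1, which lay near it.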
